A study of Mus musculus with 12 samples.

Results

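Tubulin isotypes are the products of separate genes for the alpha and beta subunits of microtubules, and 10 of these genes were followed in P19 cells during neuronal differentiation: 4 alpha-tubulin genes (Tuba1a, Tuba1b, Tuba1c and Tuba4a) and 6 beta-tubulin genes (Tubb2a, Tubb2b, Tubb3, Tubb4b, Tubb5 and Tubb6). They were chosen by gene name, among reads on annotated transcripts that passed the quality tag of the poly(A) caller, and are 10 of 14664 genes with reads and 10 of the 9355 genes tested for abundance. P19 is an embryonal carcinoma line of the mouse, wild type in all samples. Native poly(A) RNA was sequenced on nanopores before differentiation (D0, in serum-containing DMEM) and after 2, 4 and 6 days (D2, D4 and D6) in NDiff 227 medium with 500 nM retinoic acid, with 3 biological replicates per day and 12 libraries in all. Medium and retinoic acid changed together at D0 to D2, so that their effects cannot be told apart. Each culture was read in bulk, so that more cells of a type and more RNA per cell cannot be told apart either.

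Microtubules grow by the addition of alpha- and beta-tubulin dimers. The isotypes of a subunit are nearly alike over their folded body and differ mainly in a short, acidic carboxy-terminal tail that stays on the microtubule surface, where motors, associated proteins and modifying enzymes meet it. Tuba1a, Tubb2b and Tubb3 are known as the abundant isotypes of newborn neurons, Tubb3 is a widely used neuronal marker, Tuba1b and Tubb5 are found in most dividing cells, and Tuba4a is best known from platelets and mature brain.

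The coding ends of 7 isotypes are shown because they hold the tails in which isotypes differ, and because a long read on native RNA has to tell these transcripts apart. Each line gives the last 60 coding bases with the stop codon, 5′ to 3′, from the GENCODE M21 transcript that carried most reads of the gene, and capitals mark the glutamate codons GAA and GAG.
Tuba1c: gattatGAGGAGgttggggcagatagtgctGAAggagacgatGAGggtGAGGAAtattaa
Tuba4a: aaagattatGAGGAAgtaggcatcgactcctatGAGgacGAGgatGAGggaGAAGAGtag
Tubb2a: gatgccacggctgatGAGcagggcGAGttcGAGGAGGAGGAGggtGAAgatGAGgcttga
Tubb2b: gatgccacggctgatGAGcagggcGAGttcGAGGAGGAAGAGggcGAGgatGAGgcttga
Tubb3: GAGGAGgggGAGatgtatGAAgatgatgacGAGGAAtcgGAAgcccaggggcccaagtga
Tubb4b: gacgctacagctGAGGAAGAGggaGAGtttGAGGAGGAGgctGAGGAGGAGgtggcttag
Tubb5: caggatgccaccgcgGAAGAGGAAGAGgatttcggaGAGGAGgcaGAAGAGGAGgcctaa

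Glutamate codons made up 6 to 10 of these last 20 codons, the stop codon included, with 6 in Tuba1c, 9 in Tubb5 and 10 in Tubb4b. Tuba1c ended in a tyrosine codon, the residue that detyrosinating enzymes remove, whereas Tuba4a ended in a glutamate codon. Tubb3 ended in a lysine codon. Tubb2a and Tubb2b shared 95% of the bases in this stretch, while the beta isotypes as a group ranged down to 45.0%. Tuba1a and Tuba1b, whose ends are not shown, shared 98.3% of it. After the stop codon Tuba1a and Tuba1b shared 44.8% of the bases. Identity there was 6.53% to 44.8% among alpha isotypes and 12.4% to 48.0% among beta isotypes.

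Identity over the whole coding sequence was 84.7% to 98.3% among alpha isotypes and 80.2% to 96.5% among beta isotypes. Of the 46588 reads of the 10 genes, 0.208% had a mapping quality under 10, against 33.7% of the reads of all other genes. Tuba4a was the exception, with 60.6% of its 66 reads under 10. Its reads lay on 2 transcripts of the same gene, and all 23 reads on one of them and 17 of the 43 on the other were under 10. Another 15 transcripts that share stretches of sequence with the isotypes, most of them pseudogenes, carried 4 reads in all.

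Libraries held 130162 to 642548 usable reads, fewest at D2. A read stands for 1 RNA molecule, and its level is given as reads in 1e6 usable reads, or CPM, after scaling the libraries by the trimmed mean of M-values. Each of the 13 sequencing runs held libraries of 1 day, so that run and day cannot be told apart. The names of the runs behind the D0 libraries call the cells undifferentiated or undifferentiating but carry the mark D2, and the libraries were grouped by their labels. Summed pluripotency markers were at 1856 to 2078 CPM in the libraries labelled D0 and at 121 to 182 CPM in those labelled D2. Libraries also differed in how far reads reached towards the 5′ end: 17.2% to 69.7% of the isotype reads covered the start codon, from 17.2% to 49.2% at D0 and from 41.8% to 69.7% at D4. Marker lists moved with the days. The summed level of 12 neuronal markers was 453 to 479 CPM at D0, 363 to 519 at D2, 1613 to 1771 at D4, then 2521 to 2738 at D6, and 12 of 12 tested markers rose from D0 to D6. Neural progenitor markers went from 528 to 587 CPM at D0 up to 2574 to 2971 at D6, with 8 of 8 higher. By D6 the pluripotency markers had fallen to 164 to 203 CPM, and 4 of 4 tested genes were lower. Of the list of 8, Zfp42 and Dppa5a had 0 reads in every library, and Nanog, Utf1, Tdgf1 and Dppa4, which had reads on other days, were at 0 at D6. Only Pou5f1 and Sox2 were left to make up the D6 sum. Markers of astrocytes and oligodendrocytes stayed between 0 and 38.0 CPM, those of mesoderm went from 33.3 to 40.8 CPM down to 0 to 6.63, and those of endoderm from 206 to 216 CPM at D0 to 14.5 to 22.7 at D2 and 107 to 143 at D6. Of the endoderm markers, Sox17, Afp, Gata4 and Ttr had 0 reads in every library, and Foxa2 and Alb were at 0 at D6. Only Gata6 and Sparc were left to make up the D6 sum of that list. The part of these cell types in the changes below was not tested.

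From D0 to D6, 4 isotypes rose (Tuba1a, Tubb2a, Tubb2b and Tubb3) and the other 6 fell. Of those that fell, Tuba4a entered the test only through its D0 reads. Over all 9355 genes tested, 19.1% rose and 18.6% fell in the same comparison, by limma-voom at an adjusted p of at most 0.05. The median log2 fold change was -0.47 over the 10 isotypes, also with Tuba4a at its bound given below, and 0.01 over all genes. The changes of the 10 isotypes against D0 are drawn in the plot of fold changes.

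**Figure D1:**
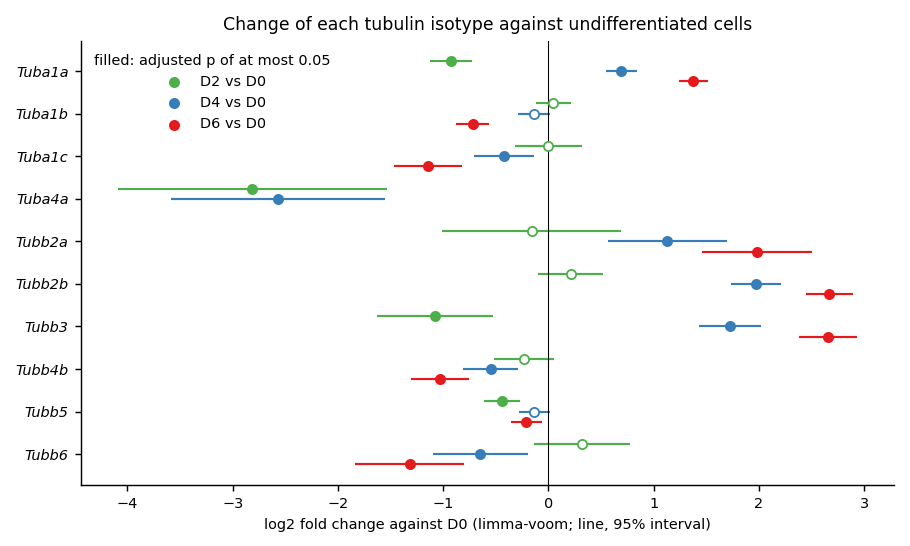
log2 fold change of each tubulin isotype against D0 (x axis) at D2 (green), D4 (blue) and D6 (red), from limma-voom on all 12 libraries. Lines are 95% intervals and filled points have an adjusted p of at most 0.05. Tuba1a, Tubb2a, Tubb2b and Tubb3 lie right of 0 at D4 and D6. Tuba4a had 0 reads at D6 and no fold is drawn for it there.

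Tubb2b and Tubb3 rose most. Tubb2b, a beta isotype needed for the migration of newborn neurons, was measured at 250.2, 245 and 225 CPM in the D0 libraries and at 1572, 1628 and 1387 CPM in the D6 libraries, from 371 and 1863 reads. All D6 libraries were far above all D0 libraries, and the level rose 6.36-fold (log2 2.67, SE 0.11, adjusted p = 5.61e-28, limma-voom). At D2 its libraries, at 288, 288 and 255 CPM, lay just above those of D0, but the difference did not pass the test (log2 0.21, SE 0.15, adjusted p = 0.436). The rise followed between D2 and D4, when Tubb2b reached 928, 968 and 927 CPM (3.38-fold, adjusted p = 2.43e-14), and went on from D4 to D6 (1.62-fold, adjusted p = 1.94e-07).

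Tubb3, the class III beta isotype of neurons, took another course. It was measured at 129.6, 127 and 135 CPM at D0 and fell to 30.3, 75.8 and 67.4 CPM at D2, below every D0 library (log2 -1.08, SE 0.28, adjusted p = 0.00492). The D2 values rest on 4, 20 and 14 reads, and without D2 replicate 1, the shallowest library, the log2 change was -0.79 with an adjusted p of 0.0524. Tubb3 then rose 6.99-fold from D2 to D4, to 398, 443 and 454 CPM (log2 2.80, SE 0.27, adjusted p = 7.06e-12), and 1.91-fold from D4 to D6. At D6 it stood at 922, 777 and 813 CPM, 6.31-fold over D0 (log2 2.66, SE 0.14, adjusted p = 9.38e-24). No D4 or D6 library overlapped with D0 or D2.

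Tuba1a, the main alpha isotype of developing neurons, also dipped at D2. Its level was 2307, 2359 and 2306 CPM at D0 and 1105, 1137 and 1445 CPM at D2, a 1.90-fold fall (log2 -0.92, SE 0.10, adjusted p = 1.05e-10). It rose 3.07-fold from D2 to D4, to 3984, 3887 and 3492 CPM (adjusted p = 2.01e-19), and 1.61-fold from D4 to D6, to 6351, 6065 and 5763 CPM (adjusted p = 9.99e-12). The libraries of the 4 days did not overlap at any step. At D6 Tuba1a was 2.60-fold over D0 (log2 1.38, SE 0.07, adjusted p = 1.05e-24).

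Tubb2a, whose coding end is close to that of Tubb2b, was the least abundant isotype to rise. It was measured at 17.9, 44.1 and 37.2 CPM at D0, from 53 reads in all, and at 15.1, 22.7 and 48.2 CPM at D2, which overlapped. It reached 50.3, 81.2 and 76.7 CPM at D4 (2.19-fold over D0, adjusted p = 0.00167) and 146, 124 and 124 CPM at D6, 3.95-fold over D0 (log2 1.98, SE 0.26, adjusted p = 7.06e-09). The step from D2 to D4 did not pass the test (log2 1.29, SE 0.40, adjusted p = 0.0625), but passed without D4 replicate 1 (adjusted p = 0.0416). The step from D4 to D6 passed (log2 0.85, adjusted p = 0.00789), but not without that same library (log2 0.71, adjusted p = 0.0560).

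**Figure D2:**
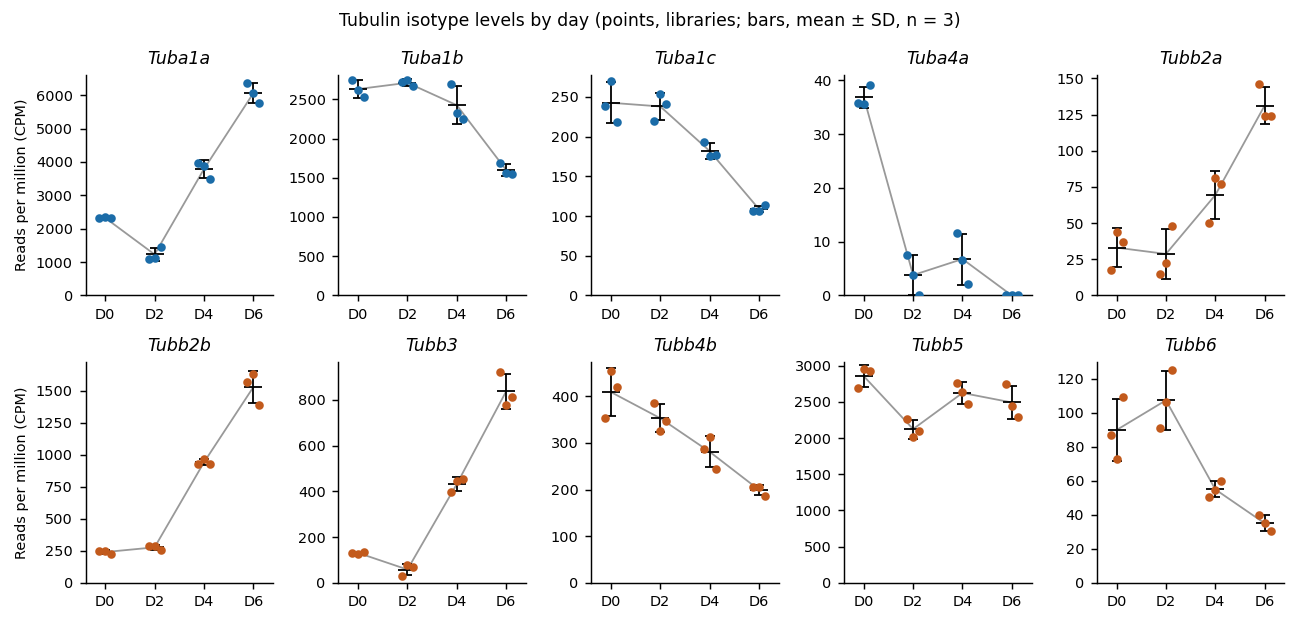
Level of each tubulin isotype (y axis, CPM, starting at 0) in the 3 libraries of D0, D2, D4 and D6. Points are libraries, bars the mean ± SD, and the grey line joins the means. Tuba1a and Tubb3 dip at D2 and rise afterwards, Tubb2a and Tubb2b rise after D2, and Tuba1b, Tuba1c, Tubb4b and Tubb6 are lowest at D6.

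Of the isotypes that fell, Tuba1b, the alpha isotype most abundant at D0 and D2, was called as lower at D6 only. It was measured at 2745, 2620.0 and 2525 CPM at D0, at 2716, 2750.4 and 2664 CPM at D2 and at 2699.6, 2324 and 2250.0 CPM at D4, and these days overlapped. At D6 its libraries lay at 1688, 1556 and 1553 CPM, below all others (1.65-fold lower than D0, log2 -0.72, SE 0.08, adjusted p = 5.83e-11). The step from D4 to D6 alone was log2 -0.58 (SE 0.08, adjusted p = 6.04e-07). With mapping qualities of 10 or more, a fall of Tuba1b was already called at D4, both against D0 (log2 -0.25, adjusted p = 0.00103) and against D2 (log2 -0.31, adjusted p = 0.0107). This limit kept 10430 of the 10441 Tuba1b reads. With it the log2 change from D0 to D4 came out lower for every isotype fitted, as for Tuba1a (0.58 against 0.69).

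Tuba1c, a low-abundance relative of Tuba1a and Tuba1b, was at 239, 270.0 and 219 CPM at D0 and at 219, 254 and 241 CPM at D2, which overlapped. It was at 193, 176 and 177 CPM at D4 (log2 -0.42, SE 0.14, adjusted p = 0.0227) and at 106, 107 and 114 CPM at D6, 2.21-fold lower than D0 (log2 -1.15, SE 0.16, adjusted p = 4.82e-08). The call at D4 was lost without D0 replicate 2, D4 replicate 2 or D4 replicate 3 (adjusted p = 0.129, 0.0920 and 0.0751).

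Tubb4b, a beta isotype of many tissues that is prominent in cilia, fell by D4 and further by D6. Its libraries were at 353, 453 and 421 CPM at D0, 386, 326 and 347 CPM at D2, 286, 312 and 245 CPM at D4, then 206, 205 and 187 CPM at D6. D0 and D2 overlapped, D4 lay below both and D6 below D4. The fall was log2 -0.55 by D4 (SE 0.13, adjusted p = 0.000903) and log2 -1.03 by D6 (SE 0.14, adjusted p = 1.45e-08), a 2.05-fold difference. The last step, from D4 to D6, was log2 -0.48 (SE 0.15, adjusted p = 0.0302) and was lost without any 1 of 4 libraries (D4 replicate 1 or 2, D6 replicate 2 or 3; adjusted p = 0.0716, 0.239, 0.0994 and 0.116). It was also lost with mapping qualities of 10 or more (log2 -0.37, adjusted p = 0.104), as well as with median-of-ratios scaling, with no filter on low counts and after thinning (limma-voom adjusted p = 0.0509, 0.0604 and 0.297). The mapping quality limit kept 1421 of the 1422 Tubb4b reads.

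Tubb6, a divergent beta isotype known from non-neural tissue, was at 87.1, 73.0 and 109.5 CPM at D0 and at 90.8, 106 and 125 CPM at D2. It was at 50.3, 54.9 and 59.7 CPM at D4, then at 39.8, 34.9 and 30.3 CPM at D6, where 42 reads remained over the libraries. It was lower at D6 than at D0 by log2 -1.32 (SE 0.26, adjusted p = 3.37e-05), and the D6 libraries lay below all others. The fall by D4 (log2 -0.65, adjusted p = 0.0273) was lost without D0 replicate 3 or without any 1 of the D4 replicates (adjusted p = 0.0538 to 0.151), and the fall from D2 to D4 (log2 -0.96, adjusted p = 0.0183) without D2 replicate 2, D2 replicate 3 or D4 replicate 2 (adjusted p = 0.0516 to 0.110).

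Tuba4a was nearly gone after D0. Its 57 reads at D0 came to 35.7, 35.7 and 39.1 CPM, and 2 reads at D2, 7 at D4, then 0 at D6 were left. In reads per usable read, D0 exceeded D2 10.1-fold, with a 95% counting interval of 2.66 to 85.1. The D6 libraries held 0 of 1158856 reads, and with 3 reads per library taken as the floor, a mean of 7.78 CPM, the level was at least 4.74-fold lower than at D0. This floor lies above the mean levels measured at D2 and D4 (3.78 and 6.77 CPM). The falls at D2 and D4 passed the test (limma-voom adjusted p = 0.00125 and 7.40e-05). Tuba4a reached the minimum of 30 reads only through D0, the day on which it was high, which limits what these tests show. Only 26 of the 66 reads had a mapping quality of 10 or more, which put the gene below the minimum of 30 reads for the fit with that limit.

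Tubb5, the main beta isotype of dividing cells, stayed abundant. Its libraries were at 2687, 2959.6 and 2920.3 CPM at D0 and dropped to 2269.9, 2012 and 2091 CPM at D2, below every D0 library (log2 -0.44, SE 0.09, adjusted p = 0.000163). At D4 it was back at 2762, 2642 and 2467 CPM, and at D6 it was at 2743, 2442 and 2291 CPM, so that D4 and D6 overlapped with D0. The fall by D6 was small (log2 -0.21, SE 0.07, adjusted p = 0.0196) and was lost without D0 replicate 2, D0 replicate 3, D4 replicate 2, D6 replicate 2 or D6 replicate 3 (adjusted p = 0.0684 to 0.176). The rise from D2 to D4 (log2 0.31, adjusted p = 0.0411) was lost in 11 of the 12 fits that left out 1 library, D0 replicate 2 being the exception (adjusted p of the 11 from 0.0509 to 0.423). With mapping qualities of 10 or more, Tubb5 was also lower at D4 than at D0 (log2 -0.25, adjusted p = 4.04e-05) and the rise from D2 to D4 was log2 0.19 (adjusted p = 0.10). The limit kept 11763 of the 11774 Tubb5 reads, and changes from D0 to D4 came out lower with it for every isotype fitted.

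Counted by day, the called changes were falls at D2, and rises and falls in every later comparison. At D2, 0 isotypes were higher than at D0 and 4 were lower (Tuba1a, Tuba4a, Tubb3 and Tubb5), where 4.72% of all genes tested were higher and 6.06% lower. At D4, 4 were higher than at D0 and 4 lower, against 12.8% and 12.6% of all genes. From D2 to D4, 4 rose (Tuba1a, Tubb2b, Tubb3 and Tubb5) and Tubb6 fell, where 2.15% of all genes rose and 1.11% fell. From D4 to D6, Tuba1a, Tubb2a, Tubb2b and Tubb3 rose and Tuba1b, Tuba1c and Tubb4b fell, against 4.14% and 4.23% of all genes. The comparisons with D0 share its libraries, as do the steps that share a day. At D2, 0 isotypes were higher also at an unadjusted p under 0.05, by limma-voom and by limma-trend.

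The order of the isotypes depended on the scale. In CPM, which counts molecules because 1 read stands for 1 molecule, Tubb5 came first at D0 (2856 ± 147, SD, n = 3) and overlapped with Tuba1b (2630.2 ± 110.4), followed by Tuba1a (2324 ± 29.9). At D6 Tuba1a came first in CPM (6060.0 ± 294), then Tubb5 (2492 ± 230.2), which lay above Tuba1b in all libraries (1599 ± 77.1), and Tuba1b overlapped with Tubb2b (1529 ± 126). Divided by the length of the annotated transcript, as CPM per kilobase, the values of Tubb5, Tubb2b and Tuba4a come out lower than the length read would give, since most of their reads ended 884, 473 and 1327 bases before the annotated end. Per kilobase the order at D0 was Tuba1b (1509 ± 63.3, SD, n = 3), Tuba1a (1289 ± 16.6), Tubb5 (1078 ± 55.6), Tubb4b (256 ± 32.0), Tuba1c (122 ± 12.9), Tubb2b (109.9 ± 6.07), Tubb3 (69.9 ± 2.10), Tubb6 (51.1 ± 10.5), Tubb2a (20.5 ± 8.45) and Tuba4a (13.0 ± 0.696). Neighbours in this order did not overlap between libraries, except Tuba1c with Tubb2b and Tubb2a with Tuba4a. At D6 Tuba1a also came first per kilobase, with 3361 ± 163 CPM per kilobase, and Tubb5 (941 ± 86.9) and Tuba1b (917 ± 44.2) overlapped on this scale only. Tubb2b followed with 701 ± 57.9 and Tubb3 with 448 ± 40.4, and Tubb4b (125 ± 6.73), Tubb2a (81.5 ± 7.91), Tuba1c (54.9 ± 2.13), Tubb6 (19.9 ± 2.70) and Tuba4a (0) came last, none of them overlapping with a neighbour.

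The isotype make-up of both families changed over the days. Shares are given as the percentage of all alpha or all beta member reads of a library and need no scaling between libraries. Tuba1a made up 43.3%, 44.6% and 45.3% of alpha reads in the D0 libraries, 27.3%, 27.4% and 33.2% at D2, 57.8%, 60.8% and 59.0% at D4, and 78.0%, 78.5% and 77.6% at D6. Tuba1b mirrored it with 50.2% ± 1.12 (SD, n = 3) at D0, 64.9% ± 3.19 at D2, 37.8% ± 1.42 at D4, then 20.6% ± 0.402 at D6. The days of both genes did not overlap at any step. Tuba1c held 4.63% ± 0.422 at D0, 5.69% ± 0.377 at D2, 2.85% ± 0.125 at D4, then 1.40% ± 0.115 at D6, and Tuba4a 0.705% ± 0.0553 at D0 and 0% at D6.

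Among beta isotypes, Tubb5 made up 76.2%, 75.8% and 75.9% of reads at D0 and 48.7%, 46.9% and 47.4% at D6. The shares of Tubb2b and Tubb3 grew over the same time. Tubb2b made up 6.40% ± 0.637 (SD, n = 3) at D0, 9.40% ± 0.738 at D2, 21.4% ± 0.594 at D4, then 29.3% ± 1.73 at D6. Tubb3 made up 3.48% ± 0.207, 1.99% ± 0.889, 9.83% ± 0.914 and 16% ± 1.00 on the same days. Tubb4b went from 10.9% ± 0.806 at D0 to 3.82% ± 0.150 at D6, Tubb6 from 2.40% ± 0.492 to 0.668% ± 0.0399 and Tubb2a from 0.868% ± 0.324 to 2.51% ± 0.115. In no isotype did the shares of the D0 and D6 libraries overlap.

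**Figure D3:**
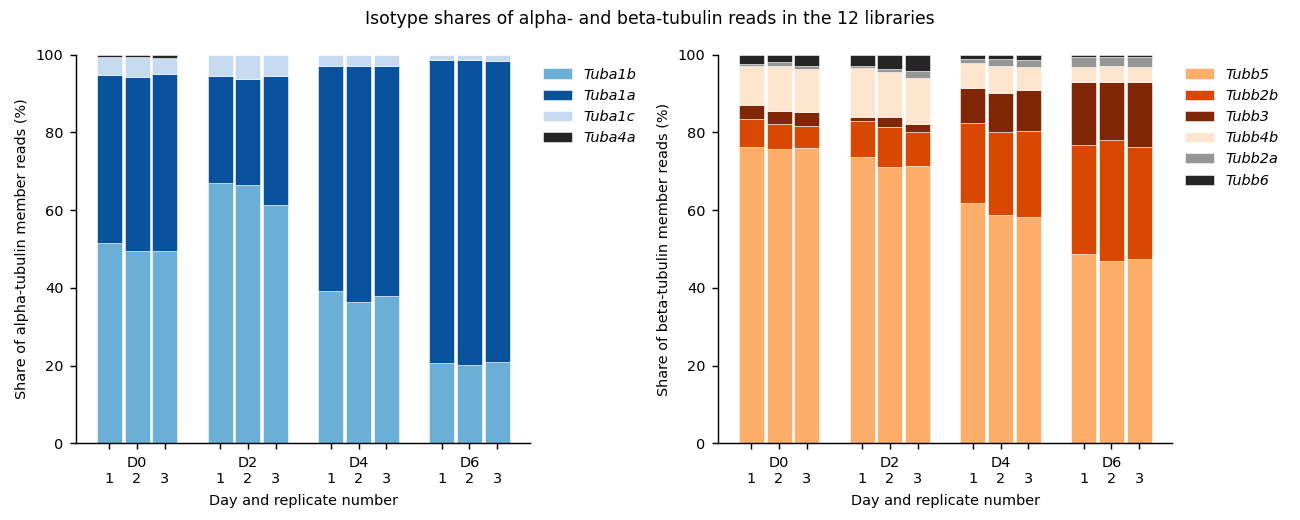
Share of each isotype among alpha-tubulin reads (left) and beta-tubulin reads (right) of each library (y axis, %), with libraries ordered by day and replicate number on the x axis. Tuba1a grows from 27.3% to 33.2% of alpha reads at D2 to 77.6% to 78.5% at D6, and Tubb2b and Tubb3 grow among beta reads while Tubb5 shrinks.

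Shares of all 10 isotypes differed between the days. In a two-sided exact permutation test over the 12 libraries, the p-value was 6.49e-05 for Tuba1a, Tuba1b, Tuba1c, Tubb2b, Tubb3, Tubb5 and Tubb6, the smallest that 369600 arrangements can give, 0.00013 for Tubb4b, 0.0039 for Tuba4a and 0.00922 for Tubb2a. These are 10 tests of shares that sum to 100% within a family, with no adjustment. D6 against D0 alone gave an exact permutation p of 0.10 for each isotype, the smallest possible with 3 libraries against 3. The difference between D6 and D0 was 33.6 percentage points for Tuba1a, -29.7 for Tuba1b, -28.3 for Tubb5, 22.9 for Tubb2b and 12.6 for Tubb3. Taken by sequencing run in place of library, Tuba1a made up 42.7% to 45.6% of alpha reads in the D0 runs and 76.5% to 78.6% in the D6 runs, and Tubb5 74.7% to 76.9% and 47.3% to 48.6% of beta reads.

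The families moved together in sum, which is described here with no test. All 10 isotypes made up 0.839% ± 0.00333 (SD, n = 3) of usable reads at D0, 0.733% ± 0.0226 at D2, 1.04% ± 0.0153 at D4, then 1.35% ± 0.0697 at D6. Alpha isotypes summed to 5234 ± 127 CPM at D0 and 7768 ± 359 at D6, and beta isotypes to 3758 ± 204 and 5224 ± 399 CPM. The ratio of alpha to beta reads was 1.40 ± 0.101 at D0, 1.42 ± 0.0923 at D2, 1.45 ± 0.0753 at D4, then 1.49 ± 0.0457 at D6, with libraries of D0 spanning 1.32 to 1.51 and of D6 1.45 to 1.54, so that the days overlapped.

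Levels of single isotypes followed each other across the 12 libraries in 2 groups, given as Pearson's r of log2 CPM. The libraries span all days, and spread between and within days was not separated. Tuba1a and Tubb3 were most alike (r = 0.98), followed by Tuba1b and Tuba1c (r = 0.96). Tuba1a and Tuba1b ran opposite to each other (r = -0.82), as did Tubb2b and Tubb6 (r = -0.93). Tubb5 was close to none of them (r from -0.20 to 0.43). Among 2819 genes that averaged 20 reads or more in a library, and with the isotypes themselves left out of the ranking, those most like Tubb3 were Dynlrb1, a light chain of the dynein motor, Cpe, a carboxypeptidase of secretory granules, and Crmp1, a microtubule-associated protein of growing axons (r = 0.96 each). Of the genes ranked, Crmp1 was also first for Tuba1a (r = 0.96), ahead of Txndc15 and Scg5. Tubb2b was nearest to Tmsb4x, an actin-binding thymosin, Nrep and Elavl3, a neuronal RNA-binding protein (r = 0.98 each), and Tubb2a to Csnk1e, Chmp5 and H2bu2 (r = 0.92 to 0.94).

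The falling isotypes had other neighbours, again with isotypes left out. Tuba1b was most like Eef1b2, a translation elongation factor, Rps27a, which encodes ubiquitin fused to a ribosomal protein, and Odc1, which makes polyamines (r = 0.96 to 0.97). Tuba1c was most like Hnrnpf, an RNA-binding protein, and Dut and Umps, enzymes of pyrimidine nucleotide synthesis (r = 0.97 to 0.98), and Tubb4b like Rpl12, Paics and Bex1 (r = 0.97 to 0.98). Tubb6 came closest to Lrrc59, Rpa1 and Dut (r = 0.95 to 0.96), and Tubb5 to AU022252, Ppp1r1a and Vdac2 (r = 0.88 to 0.91). These neighbours were picked as the highest values in each ranking and carry no test.

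Poly(A) tails of Tuba1b were called longer and those of Tubb5 shorter at D6 than at D0, and both calls were lost without some single libraries. Library medians of Tuba1b were 88.7, 89.8 and 94.1 nt at D0 and 96.5, 98.0 and 100.2 nt at D6, all D6 libraries being above D0. The rise of 7.41 nt (SE 2.18, adjusted p = 0.0362, limma on library medians) was called, but not without D0 replicate 1, D0 replicate 2, D6 replicate 2 or D6 replicate 3 (adjusted p = 0.0815 to 0.168 in these and in the fit of both days alone). Tuba1a went from 91.5, 98.2 and 101 nt at D0 to 103, 105 and 105 nt at D4 (7.35 nt, SE 2.03, adjusted p = 0.0254), a call lost without D0 replicate 1 or any 1 of the D4 replicates, and to 104, 103 and 101 nt at D6, which overlapped with D0 (5.77 nt, limma adjusted p = 0.0914). The D6 difference of Tuba1a was called with mean tails (7.33 nt, adjusted p = 0.000961), with a barcode confidence of at least 0.9 (7.84 nt, adjusted p = 0.0274), with at least 30 reads per library (adjusted p = 0.0487), weighted by reads (adjusted p = 0.0377) and without D0 replicate 3 (adjusted p = 0.0197).

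Tubb5 tails moved the other way. Their medians were 99.8, 106 and 104 nt at D0, 107, 106 and 111 nt at D2, 94.7, 97.7 and 96.8 nt at D4, then 92.6, 96.8 and 99.0 nt at D6, and D6 lay below D0. The fall by D6 was -7.12 nt (SE 2.15, adjusted p = 0.0419, limma), and that by D4 -6.91 nt (adjusted p = 0.0556). The call at D6 was lost in 7 of the 12 fits that left out 1 library (D0 replicates 2 and 3, D2 replicate 1, D4 replicates 2 and 3, D6 replicates 1 and 2) as well as with mean tails (-4.17 nt, adjusted p = 0.119) and with the barcode limit (-5.68 nt, adjusted p = 0.211). It was also lost when D0 and D6 were fitted alone (limma adjusted p = 0.0865). These medians pool both 3′ ends of Tubb5, which are given apart below.

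**Figure D4:**
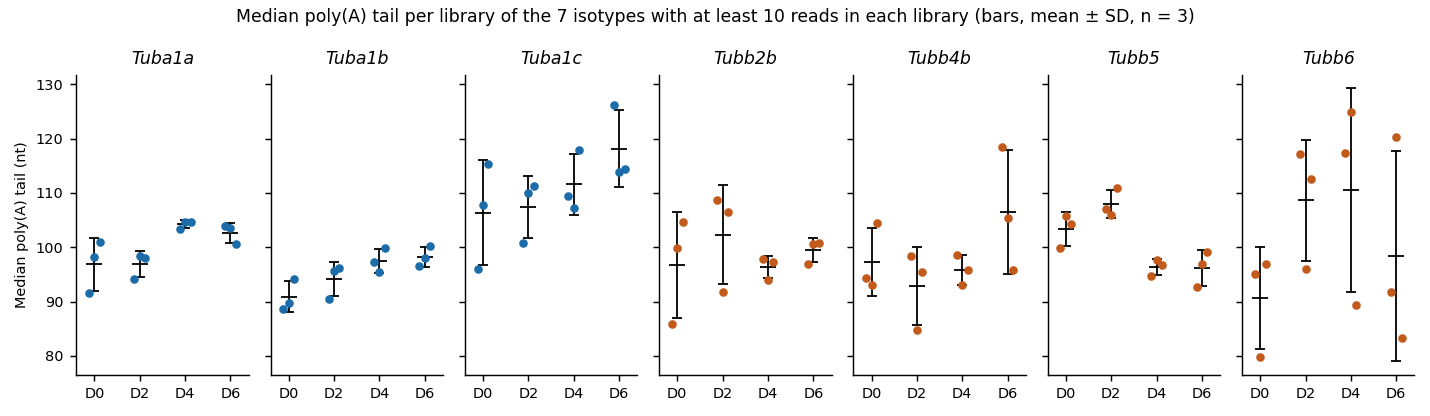
Median poly(A) tail (y axis, nt, not starting at 0) per library of the 7 isotypes with at least 10 reads in each library, on the 4 days. Points are libraries and bars the mean ± SD. Tuba1b lies a few nt higher and Tubb5 a few nt lower at D6 than at D0, while the D0 and D6 libraries of the other isotypes overlap.

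Of the 7 isotypes with at least 10 reads in every library, 0 had a called change in tail length at D2, 1 at D4 (Tuba1a) and 2 at D6 (Tuba1b and Tubb5). Among 1769 genes tested in the same way, 6.56% were called at D2, 7.24% at D4 and 8.25% at D6. At D2, 1 isotype (Tubb5, 4.66 nt) had an unadjusted limma p under 0.05. The median change by D6 was 7.41 nt over the 7 isotypes and 1.42 nt over all genes. Ranked among all genes tested, the D6 change of Tuba1b lay at percentile 70.8 and that of Tubb5 at percentile 22.4. When each day was fitted with D0 alone, 0 of 7 isotypes at D2 and 0 of 8 at D4 and D6 were called by limma, with 0, 3 and 3 at an unadjusted p under 0.05. Tubb3, which entered these fits, had medians of 112, 84.9 and 119 nt at D0 and 109.9, 109.7 and 109 nt at D6 (4.08 nt, SE 6.25, 95% interval -8.87 to 17.0). Of Tuba1a, Tuba1b and Tubb5, tails under 30 nt made up between 1.92% ± 0.118 of reads (SD, n = 3; Tuba1a at D0) and 3.90% ± 0.935 (Tubb5 at D4), and tails of 30 to 90 nt made up 42.5% ± 3.91 of Tuba1a reads at D0 and 38.4% ± 0.896 at D6.

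Tubb5 reads ended at 2 places, a result chosen after its values were seen. In Tuba1a, Tuba1b, Tuba1c, Tubb2a, Tubb2b, Tubb3, Tubb4b and Tubb6, 97.2% to 99.4% of reads ended within 25 bases of 1 position. Of the 11774 Tubb5 reads, 98.7% ended within 25 bases of 1 of 2 positions, a proximal end 177 bases and a distal end 1061 bases behind the stop codon, 884 bases apart. The distal end was used by 11.7%, 12% and 11.8% of reads in the D0 libraries, 12.3%, 11.1% and 8.76% at D2, 7.70%, 6.73% and 8.98% at D4, and 6.53%, 7.62% and 5.07% at D6. D4 and D6 lay below D0 in all libraries, and the days differed in a two-sided exact permutation test (p = 0.00487 over the 4 days). The difference between D6 and D0 was -5.45 percentage points (exact permutation p = 0.10, the smallest possible).

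Reads that covered the transcript from its start were too few in the distal form to show whether the difference is present in them. Among reads that began within 100 bases of the transcript start, the distal end made up 2.80% ± 0.988 (SD, n = 3) at D0, 1.90% ± 1.71 at D2, 3.38% ± 1.31 at D4, then 2.36% ± 1.35 at D6, on 45, 9, 58 and 30 distal reads in turn, with 0 to 27 in a library. The difference between D6 and D0 was -0.439 percentage points in these reads (exact permutation p = 0.608 over the 4 days). Keeping reads from the start also removes more of the longer distal form. Of the distal reads, 7.87% ± 5.24 reached the start at D0, 8.01% ± 7.10 at D2, 27.0% ± 15.3 at D4, then 18.2% ± 15.7 at D6, and of the proximal reads 33.2% ± 15.1, 40.9% ± 14.8, 59.3% ± 11.4 and 43.0% ± 17.6 on the same days. For both ends the D0 libraries overlapped with those of D6. The part of read completeness in the difference was not tested further.

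Tubb5 molecules with the distal end carried longer tails than those with the proximal end in 12 of 12 libraries. Library medians of distal reads averaged 131 ± 3.4 nt at D0 and 137 ± 7.38 nt at D6 (SD, n = 3), and those of proximal reads 99.0 ± 3.4 and 93.0 ± 3.47 nt. In CPM, the distal form was at 339 ± 21.4 at D0 and 160.4 ± 38.5 at D6, with no overlap between libraries, while the proximal form was at 2517 ± 126 and 2331 ± 205, with overlap.

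**Figure D5:**
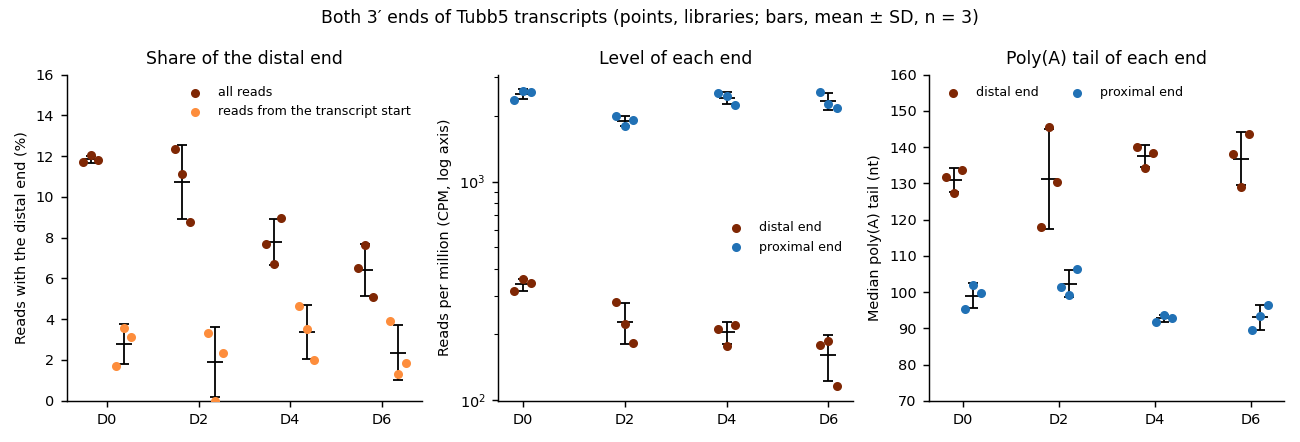
Both 3′ ends of Tubb5 at D0, D2, D4 and D6. The left panel gives the share of reads with the distal end (y axis, %) in all reads and in reads from the transcript start, the middle panel the level of each end (CPM, log axis) and the right panel the median poly(A) tail of each end (nt). Points are libraries and bars the mean ± SD. The distal share is 11.7% to 12% at D0 and 5.07% to 7.62% at D6 in all reads, and is lower on all days in the few reads from the transcript start. Distal tails lie above proximal tails on every day.

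The genes lie on several chromosomes of mm10, each with 4 exons in the transcript used. Tuba1a (chr15:98949837-98953703, minus strand), Tuba1b (chr15:98931425-98934565, minus) and Tuba1c (chr15:99029891-99038110, plus) are neighbours, as are Tubb2a (chr13:34074274-34078007, minus) and Tubb2b (chr13:34126748-34130354, minus). By D6 Tuba1a rose while its neighbours Tuba1b and Tuba1c fell, and both Tubb2 genes rose. Tubb3 lies at chr8:123411424-123422015 (plus strand), Tubb5 at chr17:35833921-35838306 (minus), Tubb4b at chr2:25222160-25224702 (minus) and Tuba4a at chr1:75214228-75219294 (minus).

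Other genes of the pathway were read from lists of the tubulin genes left over, the gamma-tubulin ring complex that starts microtubules, the cofactors that fold tubulin, and the enzymes that modify it. Of the 10 other tubulin genes 5 had reads and 3 were tested. By D6 0 of these rose and 1 fell, where 19.1% and 18.6% of all genes did. At an unadjusted limma-voom p under 0.05, 1 was higher and 1 lower. Their median change was log2 -0.16. The gene that fell was Tube1, the epsilon-tubulin of centrioles, from 17.5 ± 0.457 CPM (SD, n = 3) to 5.18 ± 3.93 (log2 -1.58, SE 0.56, adjusted p = 0.0217, limma-voom). Of 9 tested genes of the gamma-tubulin ring complex 0 rose and 0 fell by D6 (limma-voom, with 1 and 0 at an unadjusted p under 0.05, and a median log2 fold change of 0.00), where 19.1% and 18.6% of all genes did.

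Among 15 tested folding genes, which hold the tubulin cofactors, the prefoldin subunits and partners of the CCT chaperonin, 4 rose and 1 fell by D6, where 19.1% and 18.6% of all genes did, with a median of log2 0.20 against 0.01 over all genes. By size of change these were led by Pdcl3, a partner of the CCT chaperonin (51.3 ± 8.20 CPM at D0 and 77.0 ± 8.21 at D6, log2 0.59, adjusted p = 0.0367, limma-voom), Pfdn1, a prefoldin subunit (171 ± 9.22 and 112 ± 7.74 CPM, log2 -0.59, adjusted p = 0.00492), and Txndc9 (114 ± 14.7 and 166 ± 17.5 CPM, log2 0.52, adjusted p = 0.0108). The other risers, chosen after their values were seen, were Tbcb (100.0 ± 15.9 and 137 ± 8.62 CPM) and Pfdn5 (257 ± 28.8 and 337 ± 4.84 CPM).

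Of 17 tested modifying enzymes, 7 rose and 1 fell by D6, where 19.1% and 18.6% of all genes did, with a median of log2 0.75 against 0.01 over all genes. By D4, 5 rose and 2 fell, against 12.8% and 12.6% of all genes. Lrrc49, a subunit of the polyglutamylase complex, went from 8.07 ± 7.68 to 34.5 ± 11.1 CPM (SD, n = 3; log2 2.69, SE 0.57, adjusted p = 0.000137, limma-voom), on 13 and 43 reads. Atat1, which acetylates alpha-tubulin, went from 17.4 ± 6.52 to 99.1 ± 26.6 CPM (log2 2.47, SE 0.32, adjusted p = 5.73e-09), on 26 and 115 reads. Agtpbp1, a carboxypeptidase that shortens glutamate chains, went from 4.40 ± 1.91 to 21.9 ± 7.52 CPM (log2 2.17, SE 0.57, adjusted p = 0.00185). These enzymes act in part on the carboxy-terminal tails of the isotypes, and 0 of the 17 passed the test at D2 (limma-voom, 5 higher and 0 lower at an unadjusted p under 0.05), where 4.72% of all genes were higher and 6.06% lower. The enzyme that fell by D6, named after its values were seen, was Hdac6, which removes the acetyl group that Atat1 adds (52.9 ± 15.3 CPM at D0 and 25.6 ± 4.96 at D6, log2 -0.95, adjusted p = 0.0116). Sirt2, also a deacetylase, went the other way but was not called (23.3 ± 8.89 and 37.0 ± 5.22 CPM, log2 0.75, adjusted p = 0.0709). The other risers, likewise named afterwards, were Svbp (51.6 ± 8.30 and 121 ± 20.1 CPM), Vash2 (12.5 ± 3.66 and 33.2 ± 11.9), Ttl (12.4 ± 2.97 and 31.2 ± 5.35) and Agbl5 (5.92 ± 5.94 and 19.6 ± 5.99).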

How the data were processed

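Poly(A) RNA of P19 cells was sequenced directly on nanopores, in 3 barcoded libraries for each of D0, D2, D4 and D6. Base calling by the authors used Guppy, and Minimap2 (version 2.20 in the submitters' processing notes) placed the reads on mm10 transcripts of GENCODE vM17. Tails were measured by Nanopolish, and Deeplexicon gave each read its barcode. Their deposited per-read table gives 1 line per alignment, with the tail length in nt, the mapping quality as a score and the barcode confidence as a fraction. Of its 6306434 lines, 69 were malformed and 289260 had no barcode, and the 4625696 lines with a barcode, the quality tag PASS and the class mRNA were used. This class also holds mitochondrial genes (6.77% of lines) and pseudogenes (0.826%). A second deposited table holds the authors' own fold changes and adjusted p-values from DESeq2 and was not used.

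Reads were counted per gene and library. Since these tallies were made here and are not a deposited count table, their log2 CPM (pseudocount 0.5 reads) were fitted with limma-voom (limma 3.58.1, R 4.3.3) over all 12 libraries, for 9355 genes with at least 30 reads in all, after scaling by a trimmed mean of M-values (30% of ratios and 5% of levels trimmed). Median tails were fitted with limma for 1769 genes with at least 10 reads in every library. P-values were adjusted by Benjamini-Hochberg over all genes tested, with a threshold of 0.05. Isotype shares and the Tubb5 ends were compared over libraries by exact permutation tests, all two-sided. Counting intervals are at 95% and the floor is 3 reads per library, and both cover counting error only. Python 3.11.15, numpy 2.4.6, pandas 2.3.3, scipy 1.17.1, matplotlib 3.10.9 and Biopython 1.88 were used, and the fits were tested on simulated data. Coordinates and coding sequences came from GENCODE M21 (GRCm38, the assembly also called mm10), and coding ends of the other isotypes are not reported here.

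All 10 isotypes were named in every comparison, together with up to 3 called genes of each pathway list by the size of their change at D6 and the 3 genes most like each isotype, other isotypes left out. The members and lists were chosen with earlier results of these data known. Alternatives changed the mapping quality, barcode confidence, quality tag, repeated reads, gene classes, scaling, filters, depth, test, tail summary, replicate block and the libraries included. The fits without mitochondrial genes and pseudogenes, the tail fits of single days with D0 and all results on Tubb5 ends were added after seeing the data.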

Additional observations from a re-analysis of the deposited data

How the results depend on the processing

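In 50 comparisons under alternatives and 120 with 1 library left out, every isotype share kept its direction and its side of the threshold, with the D6 to D0 difference at 33.0 to 34.0 percentage points for Tuba1a and 12.1 to 13.1 for Tubb3. For the rare Tuba4a it was -0.256 with a mapping quality of 10 or more and -0.705 without that limit. The number of genes called varied with the processing and the libraries. D2 against D0 gave 1009 genes, but 556 with a mapping quality of 10 or more, 349 with all libraries thinned to 130162 reads, 1697 with no filter on low counts and 665 to 1022 with 1 library left out (665 without D2 replicate 2). D4 against D0 gave 2380 genes and 676 after thinning, D6 against D0 3523 genes, 2176 with the mapping quality limit and 1116 after thinning, and D4 against D2 305 genes, 134 after thinning and 167 to 327 with 1 library left out (167 without D2 replicate 2). D6 against D4 gave 783 genes, 407 with the mapping quality limit, 170 after thinning, 418 with limma-trend and 409 to 784 with 1 library left out (409 without D4 replicate 2, 502 without D6 replicate 2). Thinning leaves fewer reads and the mapping quality limit fewer reads and genes. After thinning, the calls of Tubb3 and Tubb5 at D2, of Tuba1c, Tubb2a, Tubb4b and Tubb6 at D4 and of Tubb5 and Tubb6 at D6, each against D0, were lost (adjusted p = 0.0505 to 0.837, limma-voom; log2 -1.04, -0.22, -0.50, 0.86, -0.54, -0.16, -0.08 and -1.20 in this order). So were those of Tubb5 and Tubb6 from D2 to D4 and of Tuba1c and Tubb4b from D4 to D6 (0.292 to 0.667). Median-of-ratios scaling ended the calls of Tubb5 at D6 (adjusted p = 0.0627) and from D2 to D4 (0.119) and of Tubb4b from D4 to D6 (0.0509). Limma-trend ended those of Tuba1c at D4 (0.0671), Tubb5 at D6 (0.129) and from D2 to D4 (0.0691) and Tubb2a from D4 to D6 (0.121), and called Tubb2a from D2 to D4 (0.0223). A barcode confidence of at least 0.9 ended the calls of Tubb6 at D4 (0.0845) and from D2 to D4 (0.0623), no filter those of Tubb6 at D4 (0.0527) and Tubb4b from D4 to D6 (0.0604), and the mapping quality limit those of Tubb5 from D2 to D4 (0.10) and Tubb4b from D4 to D6 (0.104). Tuba4a from D4 to D6 was called in 5 alternatives and without D4 replicate 3 (0.0129 to 0.0496). The tail of Tuba1b at D4 was called in 4 alternatives and without D0 replicate 3 (0.0199 to 0.0402), and that of Tubb5 at D4 in 4 alternatives and without D0 replicate 1 or D6 replicate 1 (0.00852 to 0.0452).

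Some differences that had not passed a test changed sign. Tuba1c at D2 was log2 0.00 and became 0.00862 with the mapping quality limit, 0.00311 with reads of 1 line only, 0.000184 without mitochondrial genes and pseudogenes, 0.0456 with median-of-ratios scaling, 0.000339 with no filter and -0.0723 to 0.0868 with 1 library left out. Tubb2a at D2 ranged from log2 -0.53 to 0.11 with 1 library left out. Tuba4a from D2 to D4 was log2 -0.35 with a barcode confidence of at least 0.9 and -0.27 to 0.78 with 1 library left out, and Tubb5 from D4 to D6 was log2 0.0432 with the mapping quality limit and 0.0115 after thinning. Of tails, Tuba1a at D2 was 2.12 nt with the barcode limit, 0.263 nt weighted by reads and -2.71 to 2.01 nt with 1 library left out, and Tuba1c at D2 was -0.288 nt with the barcode limit and -4.20 to 5.47 nt with 1 library left out. At D4, mean tails gave 5.36 nt for Tubb2b and 3.36 nt for Tubb4b, and leaving out 1 library gave -5.88 to 3.52 nt and -3.56 to 2.13 nt. At D6, leaving out 1 library gave -2.82 to 6.58 nt for Tubb2b and -3.15 to 15.3 nt for Tubb6, against 7.78 nt with all libraries. The cause was not tested. The D6 to D0 difference in the distal share of Tubb5 kept its sign but was -0.439 percentage points in the few reads from the transcript start, against -5.45 in all reads.

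Replicate numbers did not pair the libraries: over 18 pairs with the same number the correlation of deviations was -0.04 to 0.04, and 4 of 12 libraries correlated best with their own number. With the replicate block, 463 genes were higher and 599 lower at D2, 1090 and 1008 at D4, and 1601 and 1571 at D6, each against D0. From D2 to D4 the block gave 246 and 114, and from D4 to D6 276 and 384. The block also gave 124, 131 and 153 tail calls at D2, D4 and D6, kept all share calls (exact permutation p of at most 0.0104, where 0.00174 is the smallest possible) and that of the Tubb5 distal share (p = 0.0312), called Tubb2a from D2 to D4 (adjusted p = 0.0457), Tuba4a from D4 to D6 (0.0129) and the tails of Tuba1b and Tubb5 at D4 (0.0204 and 0.0144), and lost Tubb2a from D4 to D6 (0.0527).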

Other observations

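Reads of most isotypes ended where the annotation ends the transcript, 101 bases behind the stop codon in Tuba1c, 144 in Tubb4b, 155 in Tuba1b, 190 in Tubb2a, 197 in Tuba1a and 328 in Tubb3. Tubb2b was different, since 97.2% of its 3517 reads ended within 25 bases of a position 473 bases before the annotated end, 250 bases behind the stop codon. Tuba4a reads on the transcript that carried most of them ended most often 67 bases behind the stop codon, 1327 bases before the annotated end.

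The rarer isotypes had few tails to measure. Tubb2a medians averaged 83.4 ± 20.8 nt over the D0 libraries and 113 ± 11.5 nt over the D6 libraries (SD, n = 3), from 53 and 157 reads, and Tuba4a medians 107 ± 2.53 nt at D0 from 57 reads. Tubb6 medians averaged 90.6 ± 9.45 nt at D0 and 98.4 ± 19.4 nt at D6, from 138 and 42 reads.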
